A study of Mus musculus with 2 samples.

Results

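Hjv, Hfe, Tfr2, Neo1 and Bmp6 are the genes through which liver reads body iron before it makes hepcidin, and they were followed here on every probe set that the platform annotation assigns to one of them alone. The 5 genes had 12 probe sets of 45101 on the array and 5 of 18193 named genes. The livers came from 2 male mice aged 3 months, of mixed 129Sv/C57BL6 background, sampled after an overnight fast. One animal was Tmprss6-/-, with the gene inactivated by targeting, and one was a control whose genotype the labels do not give. Each group held 1 animal and 1 array, so the genotypes cannot be compared by any test, and every contrast below sets 1 animal beside another. Precision is limited by the number of arrays.

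Iron-loaded transferrin in plasma is sensed at the hepatocyte surface by transferrin receptor 2 (Tfr2) together with HFE, an MHC class I-like protein that also binds transferrin receptor 1. Bone morphogenetic protein 6 (Bmp6) is the ligand that responds to stored liver iron, and in mouse liver it comes mostly from sinusoidal endothelial cells. Hemojuvelin (Hjv), a membrane-anchored BMP co-receptor of the repulsive guidance molecule family, enhances BMP signalling to SMAD factors, which activate Hamp, the hepcidin gene. Neogenin (Neo1) is a transmembrane receptor that binds hemojuvelin. Matriptase-2, the protease encoded by Tmprss6, restrains this pathway, and it cleaves hemojuvelin in cultured cells.

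The promoters shown here are those of Hamp, the output of the pathway, and of Bmp6 and Neo1, the members whose brightest probe set was lowest relative to the control. They are RefSeq windows of GRCm38.p6, from 250 bases before to 50 after an annotated start, given 5′ to 3′ on the gene's strand. Capitals mark the BMP response element GGCGCC, the E-box CACGTG and the antioxidant response element core TGACNNNGC, searched on both strands and chosen after the sequences had been seen.
Hamp, chr7:30943980-30944279, minus strand: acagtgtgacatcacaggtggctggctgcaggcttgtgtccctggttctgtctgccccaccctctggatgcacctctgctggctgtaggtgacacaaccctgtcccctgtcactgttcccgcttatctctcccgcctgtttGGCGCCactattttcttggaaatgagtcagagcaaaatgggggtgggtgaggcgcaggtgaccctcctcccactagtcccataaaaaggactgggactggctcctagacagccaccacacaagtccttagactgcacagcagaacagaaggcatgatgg
Bmp6, chr13:38345466-38345765, plus strand: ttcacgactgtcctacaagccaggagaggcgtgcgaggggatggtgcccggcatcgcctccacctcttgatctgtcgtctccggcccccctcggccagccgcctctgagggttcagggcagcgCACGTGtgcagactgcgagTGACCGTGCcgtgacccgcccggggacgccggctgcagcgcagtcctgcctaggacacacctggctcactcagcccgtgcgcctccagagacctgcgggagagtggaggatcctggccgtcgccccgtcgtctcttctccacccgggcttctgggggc
Neo1, chr9:59036392-59036691, minus strand: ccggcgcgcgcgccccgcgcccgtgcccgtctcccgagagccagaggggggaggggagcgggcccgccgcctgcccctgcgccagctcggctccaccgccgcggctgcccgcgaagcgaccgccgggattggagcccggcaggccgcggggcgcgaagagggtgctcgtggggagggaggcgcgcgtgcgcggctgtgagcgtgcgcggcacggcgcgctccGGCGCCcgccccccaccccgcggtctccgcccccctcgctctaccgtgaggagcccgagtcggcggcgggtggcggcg
Hamp held 1 GGCGCC, with its first base at -109 from the start, and Neo1 held 1 at -28. Bmp6 held 0 of these, but 1 CACGTG at -127 and 1 TGACNNNGC at -108, which do not overlap. Among 32817 windows of 300 bases, 11.9% held GGCGCC, 7.15% CACGTG and 12.4% TGACNNNGC. Of the 5 members, 4 had a window in the table. The Hfe window held 1 TGACNNNGC at -67, and the 3 Tfr2 windows held 0 matches to any of these motifs. A match is a description of the letters only.

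Values are MAS5 signals in arbitrary units, 1 per probe set and array, and ratios are Tmprss6-deficient over control on the log2 scale. A floor of 17.8, the median signal of all probe sets other than 64 controls, stands in for detection. A probe set above it on both arrays is called measured, and one above it on 1 array has only a bound against the floor. On the Tmprss6-deficient array 22773 probe sets reached the floor, and on the control array 22272. In place of a replicate error, the SD of log2 ratios among sets of 1 gene is used, called the probe set spread, and it holds no variation among animals. It was 0.44 at signals up to 64 and 0.35 between 64 and 256. At signals between 256 and 1024 it was 0.26, and at higher signals 0.16. The targeted gene, Tmprss6, read 88.1 in Tmprss6-deficient liver and 1868 in control liver, a ratio of -4.41 on its 1 probe set and in the direction the labels give. The labels do not say whether its probes fall within the deleted stretch.

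On their brightest probe sets, 4 of the 5 iron-sensing genes lay within 1.5-fold between the animals and 1, Bmp6, was lower. Across all 10243 genes with a measured brightest set, 15.9% differed by 1.5-fold or more, 7.51% higher and 8.42% lower. These shares are also the background for the counts of every gene list below. Those list counts also take in genes above the floor on 1 array alone, by their bound, which the shares leave out. Neo1, at 1.49-fold lower, lay near the 1.5-fold line, and Bmp6, at 1.85-fold lower, had signals near the floor. A count of 1 in 5 gives no contrast with the background shares, and it depends on the processing. It was 2 with median scaling, quantile normalization or loess, which put Neo1 past 1.5-fold, and 0 with the pseudocount or the floor at the 70th percentile. The median log2 ratio of the 5 genes was -0.24, against -0.0098 over all measured genes.

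**Figure D1:**
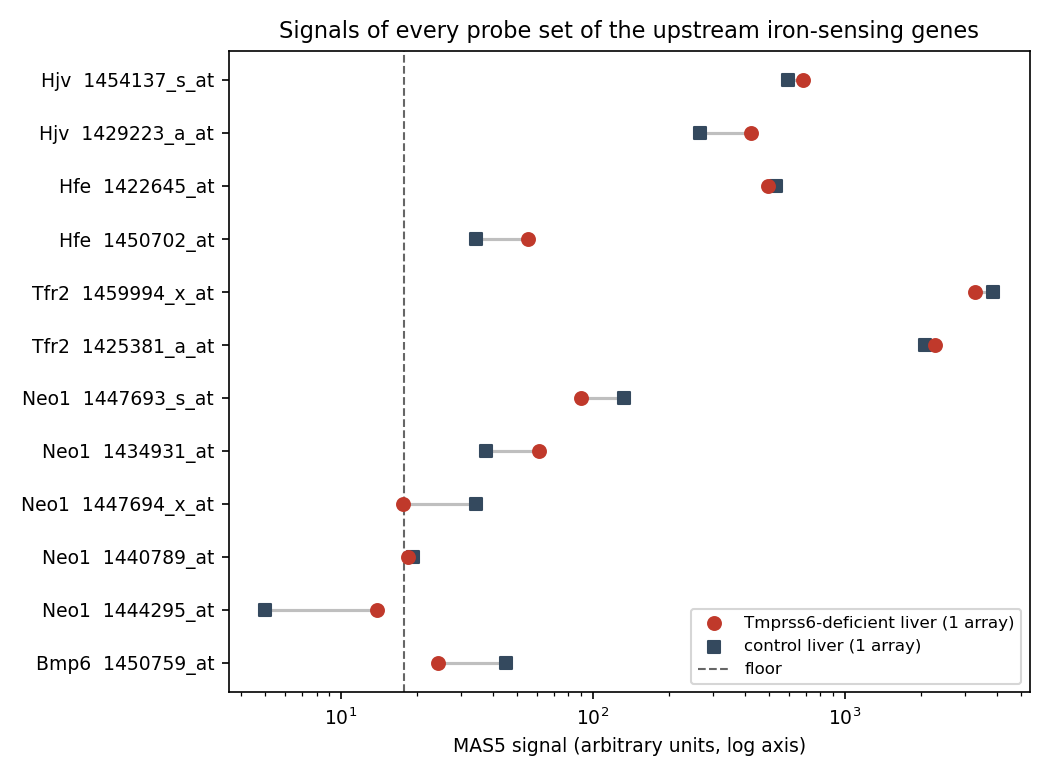
Signal of each of the 12 probe sets of Hjv, Hfe, Tfr2, Neo1 and Bmp6 on the Tmprss6-deficient array (circles) and the control array (squares), on a log axis, with the floor of 17.8 as a dashed line. The Tfr2 sets lie farthest right, at 2081 or more, and most Neo1 sets and Bmp6 lie close to the floor.

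Bmp6, the ligand, was read by 1 probe set, 1450759_at. It had a signal of 24.3 in Tmprss6-deficient liver and 45.0 in control liver, 1.85-fold lower. The log2 ratio of -0.89 is 2.01 times the probe set spread at that signal. Both signals lie near the floor, and among 7595 measured probe sets with a signal up to 64, 25.8% differed by 1.5-fold or more. With the floor added as a pseudocount the ratio was -0.58, short of 1.5-fold. There is no other probe set of Bmp6 against which to check the direction. Bmp2, the other endothelial BMP ligand of the hepcidin pathway, read 224.3 in Tmprss6-deficient liver and 269.3 in control liver, a ratio of -0.26 and less than the spread of 0.35.

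Markers of sinusoidal endothelial cells, the main source of Bmp6, are given beside it. All 12 were measured, 3 past 1.5-fold upward and 2 downward. They had a median log2 ratio of 0.13 and summed signals of 2299 in Tmprss6-deficient liver and 2260 in control liver. Lyve1, a hyaluronan receptor, had a ratio of 2.24, Clec4g, a sinusoidal lectin, -0.99, and Egfl7, a secreted endothelial factor, 0.93 on the brightest of its sets, which were in opposite directions. The list's sum is nearly equal in the 2 livers while its genes differ in both directions. Fewer cells of a type and less RNA per cell cannot be told apart in whole liver.

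Hjv, the co-receptor, was the only one of the 4 genes with several measured sets on which those sets shared a direction. Set 1454137_s_at read 683.7 in Tmprss6-deficient liver and 594.0 in control liver, a ratio of 0.20, below the probe set spread of 0.26. Set 1429223_a_at read 423.1 in Tmprss6-deficient liver and 265.7 in control liver, a ratio of 0.67 or 1.59-fold higher, which is 2.62 times that spread. Both sets were higher in the Tmprss6-deficient animal, but by amounts that differ by 0.47 on the log2 scale. A gap of this size or more between the brightest sets was seen in 29.3% of 4367 genes with a second measured set. This share and the matching ones for Neo1 and Hfe pool genes of all signals. They are not matched to the signal of the sets, on which the spread depends. In the range from 256 to 1024, 9.18% of 3715 probe sets differed by 1.5-fold or more.

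The other repulsive guidance molecules were near or under the floor. Rgma read 4.5 in Tmprss6-deficient liver and 4.8 in control liver. Of the 6 sets of Rgmb, 1 passed the floor, on the control array alone, at 11.9 in Tmprss6-deficient liver and 19.6 in control liver. Hjv is also a gene of skeletal muscle, and markers of that tissue were at or near the floor here. Of 8, 5 were under it on both arrays and 0 were above it on both. The other 3, above it in the control alone, had bounds with a median of -0.50 on the log2 scale, and the list had summed signals of 56.6 in Tmprss6-deficient liver and 90.7 in control liver. Acta1, skeletal actin, had the highest control signal of these, at 14.7 in Tmprss6-deficient liver and 26.1 in control liver. The calcium pump gene Atp2a1 read 16.6 and the creatine kinase gene Ckm 2.3 in Tmprss6-deficient liver, against 25.1 for Atp2a1 and 23.9 for Ckm in control liver.

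Neo1, the hemojuvelin-binding receptor, had 5 probe sets, and they were in opposite directions. The brightest, 1447693_s_at, read 89.6 in Tmprss6-deficient liver and 133.3 in control liver, a ratio of -0.57 or 1.49-fold lower, and it passed 1.5-fold with median scaling, at -0.64. The next, 1434931_at, read 61.2 in Tmprss6-deficient liver and 37.6 in control liver, a ratio of 0.70 or 1.63-fold higher, which became 0.51 with the pseudocount and at least 0.21 with the floor at the 70th percentile. These ratios are 1.65 and 1.59 times the spread of their signal ranges and point opposite ways. From 64 to 256, 16.7% of 6932 sets differed by 1.5-fold or more.

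Set 1447694_x_at of Neo1 was designed from the same source sequence as 1447693_s_at, so these sets are not independent, and their suffixes mark probes that may also bind other transcripts. It read 17.6 in Tmprss6-deficient liver and 34.2 in control liver, at least 1.92-fold lower. Set 1440789_at read 18.4 in Tmprss6-deficient liver and 19.3 in control liver, both at the floor. Set 1444295_at was below the floor on both arrays, at 13.9 in Tmprss6-deficient liver and 5.0 in control liver, and gets no ratio. The gap of 1.28 between the 2 brightest Neo1 sets was matched or exceeded in 2.47% of the 4367 genes. No direction can be given for Neo1 as a gene. Its ligand Ntn1, netrin-1, read 60.9 in Tmprss6-deficient liver and 62.2 in control liver on the brighter of its sets.

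Tfr2, the sensor of iron-loaded transferrin, was read by 2 bright sets. Set 1459994_x_at read 3283 in Tmprss6-deficient liver and 3885 in control liver, a ratio of -0.24 and 1.49 times the spread of 0.16. Set 1425381_a_at read 2289 in Tmprss6-deficient liver and 2081 in control liver, a ratio of 0.14 and 0.841 times that spread. The sets point in opposite directions and neither reaches 1.5-fold, which 8.35% of 1652 sets above 1024 did. The suffix x of the brighter set, like the suffix s of 1 Hjv set, marks probes that, as for Neo1, may bind other transcripts.

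Tfr2 is carried by red cell precursors as well as hepatocytes, so erythroid markers are given beside it. Of 8, 6 were named on the array, 3 passed the floor on at least 1 array and 1 on both. Alas2, the erythroid form of the first heme enzyme, read 232.0 in Tmprss6-deficient liver and 593.1 in control liver, a ratio of -1.35. The transcription factor gene Klf1 read 11.5 in Tmprss6-deficient liver and 57.5 in control liver, at least 3.23-fold lower. The band 3 gene Slc4a1 read 18.7 in Tmprss6-deficient liver and 7.2 in control liver. The list had 0 genes higher and 2 lower past 1.5-fold, Klf1 by its bound alone. Its median of -1.35 is the ratio of Alas2, the 1 gene measured on both arrays. Summed over the list, signals were 290.2 in Tmprss6-deficient liver and 664.1 in control liver, and their part in the Tfr2 values was not tested.

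Hfe was close between the livers on its bright set and higher on its dim one. Set 1422645_at read 494.1 in Tmprss6-deficient liver and 534.9 in control liver, a ratio of -0.11 and 0.447 times the spread. Set 1450702_at read 55.4 in Tmprss6-deficient liver and 34.5 in control liver, a ratio of 0.68 or 1.61-fold higher, 1.54 times the spread at its lower signal. That ratio was 0.49 with the floor added as a pseudocount and at least 0.067 with the floor at the 70th percentile, short of 1.5-fold under both. Both sets were designed from 1 source sequence. The gap of 0.80 between them was matched or exceeded in 11.0% of the 4367 genes.

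HFE needs beta-2-microglobulin to reach the cell surface. B2m read 10893 in Tmprss6-deficient liver and 11586 in control liver, a ratio of -0.089. Transferrin receptor 1, the other partner of HFE, is encoded by Tfrc, which read 286.5 in Tmprss6-deficient liver and 311.1 in control liver, a ratio of -0.12. Hfe is also present in Kupffer cells, the macrophages of the liver. Their markers had a median log2 ratio of -0.47 over 8 measured genes, 1 of them higher and 2 lower past 1.5-fold, and summed signals of 2504 in Tmprss6-deficient liver and 3448 in control liver. The scavenger receptor gene Marco had a ratio of 0.82, the lectin gene Clec4f -0.81 and the complement receptor gene Vsig4 -0.78. The part of these cells in the Hfe values was not tested.

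**Figure D2:**
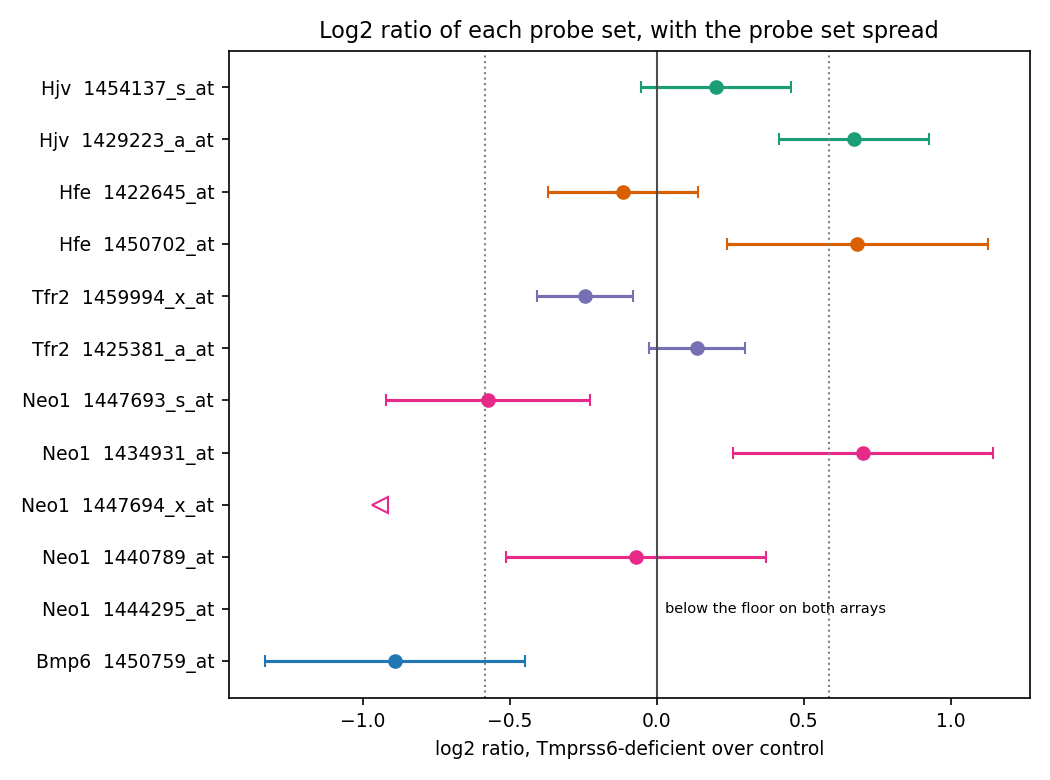
Log2 ratio, Tmprss6-deficient over control, of each probe set of the 5 genes, with bars of 1 SD of the probe set spread at that signal. Dotted lines mark 1.5-fold, and the open triangle is a bound. Both Hjv sets lie to the right of 0, while sets of Hfe, Tfr2 and Neo1 lie on both sides of it.

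Over all 12 sets, 10 were measured, and 4 of these differed by 1.5-fold or more, 3 higher and 1 lower, against 18.1% of 19894 measured probe sets, 10.0% higher and 8.07% lower. With the pseudocount 1 of 10 passed, and with the floor at the 70th percentile 1 of 6, in both cases the Hjv set 1429223_a_at. Under those settings 9.71% and 10.8% of all measured genes passed, shares over genes rather than sets. Of the 4 member sets with a signal up to 64, 3 passed 1.5-fold, against 25.8% of all measured sets in that range. Of the 6 brighter ones 1 did, against 16.7% of sets from 64 to 256, 9.18% from 256 to 1024 and 8.35% above. Counts this small give no contrast with these shares. The median log2 ratio of the 10 sets was 0.034, opposite in sign to the median of -0.24 over the brightest sets. Of the 4 genes with several measured sets, 1 had them in a shared direction and 3 did not. In the array as a whole, the 2 brightest sets shared a direction for 60.8% of 4367 genes.

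**Figure D3:**
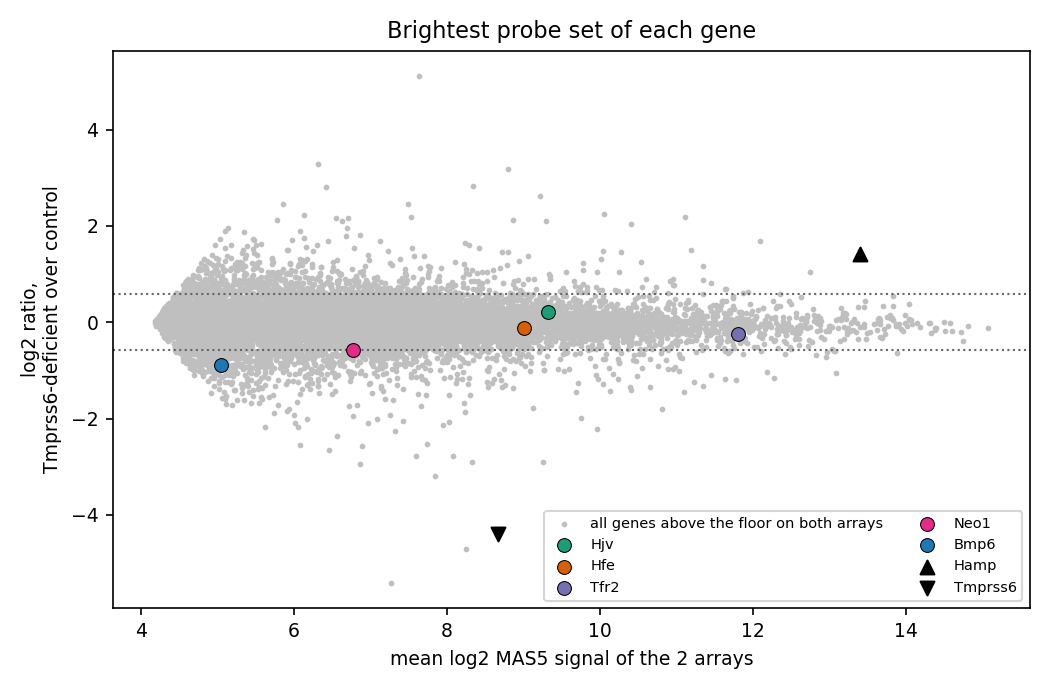
Log2 ratio, Tmprss6-deficient over control, against the mean log2 signal of the 2 arrays for the brightest probe set of each of 10243 measured genes (grey). The 5 iron-sensing genes lie inside the cloud. Hamp lies at 1.41, a ratio that other genes such as Lyve1, at 2.24, exceed, and Tmprss6 lies far lower, at -4.41.

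Hepcidin and other BMP-SMAD target genes, the output of the pathway, were mostly higher in the Tmprss6-deficient liver. Of 9 target genes, 8 were at least 1.5-fold higher and 1 at least 1.5-fold lower, and their median log2 ratio was 1.31, against 7.51% higher and 8.42% lower over all genes. Hamp read 17531 in Tmprss6-deficient liver and 6593 in control liver on its brighter set, a ratio of 1.41, and 1.55 on the other. Hamp2, a near-identical gene whose probes may not tell it apart from Hamp, had a ratio of 1.48. The inhibitors of differentiation Id1, Id2 and Id3 had ratios of 1.48, 1.46 and 1.13. The transcription factor gene Atoh8 had a ratio of 1.31, and the inhibitory SMAD genes Smad6 and Smad7 had 0.89 and 0.61. Atoh8 read 106.8 in Tmprss6-deficient liver and 43.0 in control liver, and Smad6 read 62.9 in Tmprss6-deficient liver and 33.9 in control liver. The pseudoreceptor gene Bambi, at 20.5 in Tmprss6-deficient liver and 56.1 in control liver, had -1.45. Smad6 and Bambi lie in the signal range up to 64, where 25.8% of measured sets differed by 1.5-fold or more. Some dimmer sets were closer to the control, at 0.42 for Smad7 and 0.11 for the third set of Id2. The second set of Id2, at 1.57, and the dimmer Hamp set lay farther from the control than the brightest sets. The count of 8 was 7 under 6 of the alternatives, among them median scaling and the pseudocount, and 5 with plain sets only.

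Partners, relatives and processing enzymes of the iron-sensing proteins were mostly close between the livers. Of 12 genes, 10 were named on the array and 9 passed the floor on at least 1 array, of which 1 was higher and 1 lower past 1.5-fold. Their median was -0.089. Fgl1, a secreted liver protein known in mouse as an antagonist of BMP signalling, read 9853 in Tmprss6-deficient liver and 4797 in control liver, a ratio of 1.04 on its 1 set, or 6.37 times the spread at that signal. The lower gene was Tmprss6. Furin, the protease that cleaves hemojuvelin into a soluble form, read 708.0 in Tmprss6-deficient liver and 648.6 in control liver, a ratio of 0.13.

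BMP receptors and the SMADs that carry the signal had 8 measured genes of 10, with a median of -0.12. Of these, 0 were higher and 2 lower past 1.5-fold, against 7.51% higher and 8.42% lower over all genes. Bmpr1b and Smad9 were below the floor on both arrays. The type I receptor gene Acvr1 read 115.3 in Tmprss6-deficient liver and 177.5 in control liver on its brightest set, a ratio of -0.62, while its other sets had 0.77 and 0.34. The type II receptor gene Acvr2b read 21.4 in Tmprss6-deficient liver and 36.4 in control liver, a ratio of -0.77, and a dimmer set above the floor in the Tmprss6-deficient liver alone was at least 1.08-fold higher. Bmpr1a, the main type I receptor of hepatocytes, had 6 sets. The brightest had a ratio of -0.52 and the other 4 measured on both arrays had 0.018, -0.42, -0.16 and -0.32, while a set above the floor in the Tmprss6-deficient liver alone was at least 1.46-fold higher. Acvr2a had -0.066.

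Among the SMAD genes of this list, the shared factor gene Smad4 had a ratio of -0.090. Smad1 had 0.36 on its brightest set, with its other sets at 0.33 and 0.39, all of them higher. Smad5 had 0.50 on its brightest set and 0.63 on the next, while a dim set above the floor in the control alone was at least 1.32-fold lower. The type II receptor gene Bmpr2 had -0.16 on its brightest set, and its dim sets gave bounds in both directions.

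**Figure D4:**
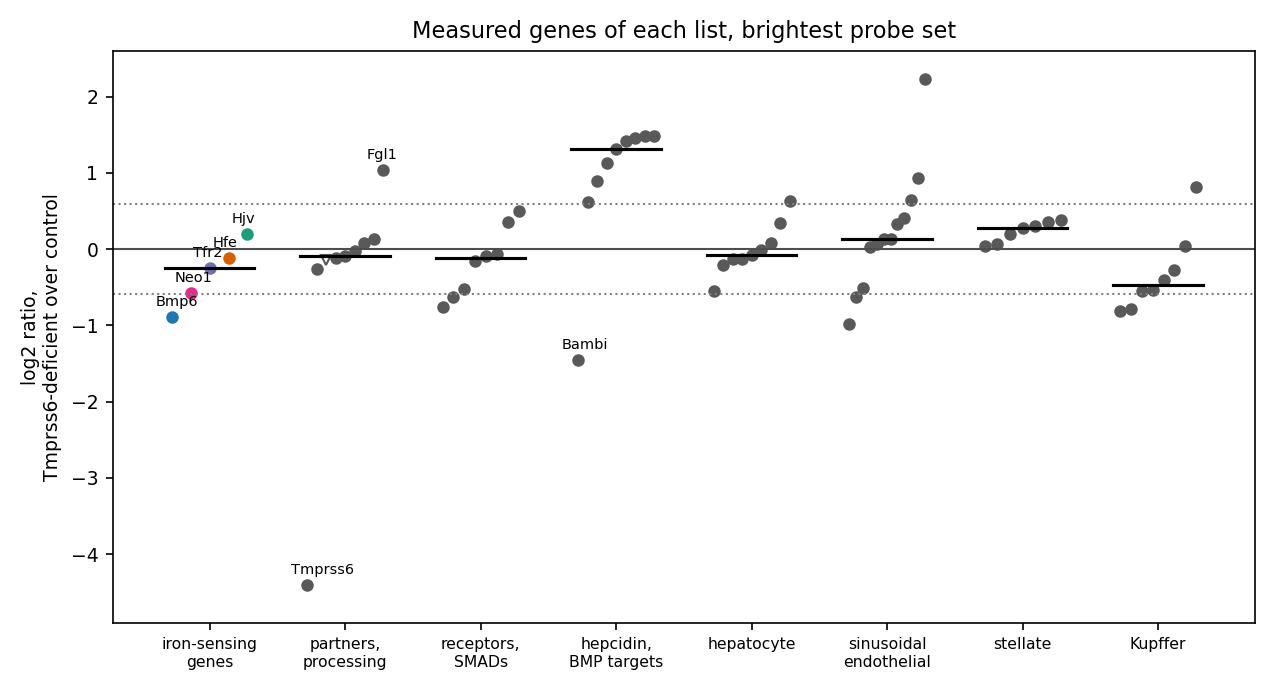
Log2 ratio, Tmprss6-deficient over control, of the brightest probe set of each gene above the floor on at least 1 array, by list, with the list median as a bar and 1.5-fold as dotted lines. Open symbols are bounds. The iron-sensing genes lie between -0.89 and 0.20, and 8 target genes lie above the upper dotted line, Smad7 just above it.

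The tissue label was checked on hepatocyte markers, of which 9 of 10 were named and all 9 were measured. Of these, 1 was higher and 0 were lower past 1.5-fold. Their median log2 ratio was -0.075, with summed signals of 141335 in Tmprss6-deficient liver and 145176 in control liver. Tat, a fasting-responsive amino acid enzyme, had a ratio of -0.56, the fibrinogen gene Fgb had 0.35, and the transcription factor gene Hnf4a had 0.62. Of 7 stellate cell markers 0 passed 1.5-fold in either direction, and they had a median of 0.27 and summed signals of 4201 in Tmprss6-deficient liver and 3427 in control liver. The matrix gene Dcn had a ratio of 0.38, the lectin gene Colec11 0.36 and the matrix gene Ecm1 0.30. The part of stellate cells in the values of the iron-sensing genes was not tested.

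The listed genes with the log2 ratio nearest to each member were found among 62 measured genes outside the members. With 2 arrays, this likeness rests on 1 ratio per gene. For Hjv it was Lrat, a retinol-storing enzyme of stellate cells, at a distance of 0.0032. For Hfe it was Tfrc, at 0.0044, for Tfr2 it was Bmp2, at 0.021, for Neo1 it was Tat, at 0.018, and for Bmp6 it was Clec4f, at 0.077. Each distance is the smallest among 62 genes, so a value below the probe set spread is easily reached and supports no pairing.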

How the data were processed

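Total RNA of each liver went through a purification kit, was made into double-stranded cDNA and then biotin-labelled by in vitro transcription, per the labels' protocols. The deposited intensity values are linear MAS5 signals, per the submitters' processing notes. No version or setting was given in the sources used here. Detection calls were not used. Both arrays had a mean of 100.0 with the lowest and highest 2% left out, so they look already scaled. MAS5 summarises each array alone and is noisy near background.

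Signals were scaled to a common trimmed mean, floored and put on the log2 scale with Python 3.11.15, numpy 2.4.6 and pandas 2.3.3. The platform annotation gave 1 symbol to 34958 probe sets, several to 932 and none to 9211, and RefSeq GRCm38.p6 held the gene identifier of 34754. The brightest probe set, by mean log2 signal, stands for its gene. The probe set spread is the SD of the difference between the 2 brightest measured sets, over the square root of 2, by the signal of the dimmer set. The ratio calculation was tested on simulated data. Called means 1.5-fold or more.

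The members and lists were chosen with earlier results of these data known. Every member probe set is named, with Tmprss6 and Hamp. Of the partner, receptor and target lists, genes with a set past 1.5-fold and up to 4 others are named by brightness, of each cell type list the 3 largest ratios, and the nearest gene to each member. Ntn1, Rgma and Rgmb were named after their values were seen. Alternatives were scaling to the median or none, quantile and loess normalization, no floor, the floor as a pseudocount, a floor at the 70th or the 30th percentile, the mean of all measured sets, and plain sets only.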

Additional observations from a re-analysis of the deposited data

How the results depend on the processing

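The cause of each change below was not tested. Bmp6 was lower under all 9 alternatives that gave it a value, from -0.95 to -0.58, and was below the floor at the 70th percentile. Hjv was higher under all 9 that gave it a value, from 0.14 to 0.44. With the mean of all measured sets, the ratio was 0.28 for Hfe, -0.053 for Tfr2, 0.020 for Neo1 and 0.020 for the median of the members. With plain sets only (no letter in the suffix), Neo1 had 0.70, 1 member was higher by 1.5-fold, and Hjv and Tfr2 had no set. Both Neo1 and Bmp6, 2 members, were lower with median scaling, with quantile normalization and with loess. With the 70th percentile floor or the floor as a pseudocount, 0 were lower. The target genes had a median of 1.13 with the 70th percentile floor, where 0 were lower, and 1.04 with the pseudocount. Their median was 1.13 with the mean of all sets and 0.89 with plain sets only, where 5 were higher and Id1 and Hamp2 had no value. Erythroid markers had a median of 0.48 with no floor, against -1.35. Genes past 1.5-fold made up 15.9% of all genes, 23.1% with the 30th percentile floor, 10.8% with the 70th, 9.71% with the pseudocount and 40.7% with no floor. Median scaling put the median of all genes at -0.072. Of 286 recomputed values, 110 gene, pathway and count results and 148 results for single sets and marker lists stayed within a limit. Some of these values could not move, as with percentile floors for bright sets, so the tally overstates how much was tried. For single ratios the limit was the probe set spread, and for counts a change of 1.5 times or less. For list medians it was the spread over all signals, divided by the square root of the number of genes with a value. No paired analysis was possible because each group held 1 array. Signals up to 64, as for Bmp6 and 4 of the 5 Neo1 sets, limit what these arrays can show.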

Other observations

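Hnf4a, which encodes a central transcription factor of hepatocytes, was higher in the Tmprss6-deficient liver on all 4 of its probe sets. They read 4850, 2135, 1892 and 307.4 in Tmprss6-deficient liver, against 3148, 945.3, 979.4 and 116.4 in control liver. The log2 ratios were 0.62, 1.18, 0.95 and 1.40, each larger than the probe set spread at its signal. Among all measured sets, 8.35% of those above 1024 and 16.7% of those from 64 to 256 differed by 1.5-fold or more. Whether the Hnf4a sets share a source sequence was not examined, so they may not be independent. Some carry the suffix s, which marks probes that may bind other transcripts. Other hepatocyte markers of that list lay within 1.5-fold on their brightest sets. The gene was chosen after its values were seen.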
